A study of Rattus norvegicus with 12 samples.

Results

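The genes of mitochondrial oxidative phosphorylation were compared between laser-ablated, bur-drilled and control rat calvaria. Members were the array probes whose gene name begins with Nduf followed by a, b, c, s or v, with Uqcr, Cox4 to Cox8 or Atp5, or is Sdha, Sdhb, Sdhc, Sdhd, Cycs or Cyc1. The rule took 133 probes of 94 genes, of 45598 probes and 25626 named genes in all. Of these, 126 probes of 92 genes passed the signal filter, under which 4 or more of the 12 arrays must read a probe well above background. The testis isoforms Cox7b2 and Cox8c did not pass. The 92 genes were 36 of complex I, 4 of complex II, 9 of complex III including Cyc1, cytochrome c itself (Cycs), 17 of complex IV including Ndufa4 and Ndufa4l2, and 15 of complex V. The pattern also took 7 assembly factors of complex I (Ndufaf1 to Ndufaf7) and 3 further names, Cox7a2l, Atp5s and the Cox6c copy Cox6c-ps1. The array uses older names for ATP synthase, so that Atp5a1, Atp5b and Atp5e here are Atp5f1a, Atp5f1b and Atp5f1e in RefSeq.

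Oxidative phosphorylation makes ATP at the inner mitochondrial membrane. Complexes I and II pass electrons from NADH and succinate to ubiquinone, complex III passes them to cytochrome c, and complex IV passes them to oxygen, while complex V uses the resulting proton gradient to make ATP. Most subunits are encoded in the nucleus, and some of complex IV have isoforms tied to muscle, testis or low oxygen. In bone, osteoclasts are known for dense mitochondria and differentiating osteoblasts use both respiration and glycolysis.

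All rats were 10 weeks old and bone was taken 24 h after surgery. The 4 laser samples came from calvaria cut with an Er:YAG laser, an infrared laser absorbed by water, and the 4 bur samples from calvaria cut with a rotating bur, both over 8 by 3 mm. In the 4 control samples the periosteum, the membrane over the bone, was stripped and the bone was not cut, so all 3 groups had surgery. The labels give neither strain nor sex, nor whether the samples of a group are separate animals, so p-values measure only the spread between these samples.

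The median processed signal was 55.6 to 81.9 on laser arrays, 18.6 to 28.3 on bur arrays and 16.5 to 43.2 on control arrays, and 67.5 to 72%, 57 to 59.9% and 57.2 to 64.4% of spots were well above background there. The laser arrays filled slide 2, and the bur and control arrays shared slide 1, so slide and laser treatment cannot be told apart. On slide 1 the control arrays lay in row 1 and the bur arrays in row 2, so row and drilling cannot be told apart either. All 12 bone matrix and osteoblast markers checked, Col1a1 and Bglap among them, passed the filter. Their summed linear signal was 290000 to 413000 on laser arrays, 230000 to 300000 on bur arrays and 137000 to 325000 on control arrays. The summed signals of other cell types also differed between groups, and such sums lean on the brightest genes. The summed signal of 12 erythroid genes was 55500 to 71400 in laser, 45500 to 95900 in bur and 157000 to 185000 in control bone, and that of 11 monocyte and macrophage genes was 49200 to 73000, 97400 to 131000 and 54500 to 84800. The sum of 9 neutrophil genes was 109000 to 156000 in laser, 39000 to 65600 in bur and 58200 to 81400 in control bone. That of 18 cell cycle genes was 21300 to 26100, 17100 to 22800 and 46400 to 48600, with 16 of 18 called lower in laser and 17 in bur than in control bone. By gene, 4 of 11 monocyte and macrophage genes were called higher and 1 lower in laser than in control bone (median 0.44). In bur bone 9 of them were higher and none lower (median 1.21). Of the 9 neutrophil genes, 4 were called higher and none lower in laser bone (median 0.01). In bur bone 1 neutrophil gene was higher and 1 lower (median -0.51). Neural markers were high in 2 control samples, at 11500 in control 1 and 6300 in control 4, against 159 to 1120 on the other 10 arrays. These samples are bulk tissue, so fewer cells of a type and less RNA per cell cannot be told apart, and the part of cell makeup in the results below was not tested.

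Most members were bright. Of the 126 kept probes, 119 were well above background on all 12 arrays and 96 had a mean level of 8.5 log2 or more, as did 6799 of all 27196 kept probes. Levels of different probes are not compared with each other. A gene is represented by its brightest kept probe unless another probe is named, and a call means a p under 0.05 after Benjamini-Hochberg adjustment over all kept probes, from 1 limma fit of the 12 arrays.

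Probes of 1 gene often gave different answers in the laser comparisons, so the sequences of 3 genes whose probes disagree in size or sign are shown first. Each is a 60-base probe, printed 5′ to 3′, with runs of 4 or more purines (A or G) in capitals. Over all probes the purine share moved with the laser difference, though not between the Uqcrfs1 probes, as described further on. For each gene the brighter probe comes first.
Uqcrfs1, brighter probe: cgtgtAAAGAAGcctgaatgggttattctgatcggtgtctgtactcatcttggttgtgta
Uqcrfs1, dimmer probe: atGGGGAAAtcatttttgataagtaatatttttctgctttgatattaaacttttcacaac
Cox5b, brighter probe: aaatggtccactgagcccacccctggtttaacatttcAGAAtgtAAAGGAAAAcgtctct
Cox5b, dimmer probe: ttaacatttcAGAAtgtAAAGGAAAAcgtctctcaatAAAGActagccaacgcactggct
Cycs, brighter probe: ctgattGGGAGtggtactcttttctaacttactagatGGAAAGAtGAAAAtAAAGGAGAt
Cycs, dimmer probe: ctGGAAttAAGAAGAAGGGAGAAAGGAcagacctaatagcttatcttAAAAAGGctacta
The array files place the Uqcrfs1 probes at chr17:40433660-40433719 and chr17:40434258-40434317 on the plus strand of rn4. The Cox5b probes lie at chr9:35627211-35627270 and chr9:35627238-35627298 on the plus strand and share a stretch of 33 bases. The Cycs probes lie at chr4:78825928-78825987 and chr4:78826694-78826753 on the minus strand. Which exon or untranslated region each falls in was not analysed here.

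Bur drilling was followed by few calls among the members. Of 92 genes, 5 were called higher and 1 lower in bur-drilled than in control bone, which is 6.52%, against 21.9% of all 16382 genes called in either direction, 12.8% higher and 9.12% lower. No gene of complexes II, III or V was called and neither was Cycs. Of the 82 structural subunits and cytochrome c, 3 were called higher and none lower. The member median was -0.06 on the log2 scale, against 0.08 over all genes. Among all probes at 8.5 log2 or more, where most members lie, the median was -0.05, with 12.5% called higher and 14.4% lower. A negative difference was found for 64 of 92 members, a share not counted over all genes. The groups did not overlap for 12 of 92 members, against 23.2% of all genes. Counted by probe, 5 of 126 were called higher and 1 lower, against 20.4% of all probes called, 12.6% higher and 7.84% lower.

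In complex IV, Cox4i2 rose. It encodes the alternative isoform of subunit 4, known from lung and from cultured mammalian cells at low oxygen. It read 7.79, 8.56, 8.91 and 9.20 log2 on bur arrays, against 7.13, 8.09, 7.17 and 6.82 on control arrays. Bur 1 lay below control 2, and the other bur arrays lay above every control. The difference was 1.31 ± 0.32 log2 (SE, n = 4 each), a 2.48-fold higher signal, with an adjusted p of 0.0139. Cox4i1, the common isoform, read 13.92, 14.23, 14.24 and 14.38 in bur and 14.28, 14.20, 14.52 and 14.54 in control bone. Those groups overlapped, and the difference was -0.19 with a 95% interval from -0.56 to 0.17.

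Cox6b1, which sits on the intermembrane side of complex IV, read 6.55, 6.47, 6.41 and 6.56 on bur arrays, against 5.64, 5.72, 6.21 and 5.79 on control arrays. All bur values lay above all control values, and the difference was 0.66 ± 0.15 (adjusted p = 0.00997). Ndufa4l2, a paralogue of Ndufa4 known to be induced at low oxygen, read 3.91, 3.91, 4.59 and 4.81 in bur, against 2.69, 4.56, 1.54 and 2.46 in control bone. Control 2 lay inside the bur range. The difference of 1.49 ± 0.50 did not pass the test (adjusted p = 0.0575), and its size depended on the processing. It was 2.07 without control 2 (adjusted p = 0.00276), 1.26 without control 1 and control 4 (adjusted p = 0.258), 0.26 with normexp (adjusted p = 0.0895) and 0.54 with the authors' values (adjusted p = 0.0177). Only 1 of 4 control arrays was well above background, so the size of the difference has little meaning.

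Cox6a2 and Cox8b are the heart and skeletal muscle isoforms of their subunits. Cox6a2 read 7.81, 7.15, 7.01 and 7.83 on bur arrays, against 5.69, 7.14, 5.13 and 5.68 on control arrays. Control 2 again lay within the bur range, and the difference of 1.54 ± 0.52 missed the threshold (adjusted p = 0.0576), but passed it without control 2, at 1.95 (adjusted p = 0.0207). Of 18 skeletal muscle markers on the array, 12 passed the filter, and their summed linear signal was 508 to 1260 in bur and 423 to 1200 in control bone. Its part in Cox6a2 was not tested. Cox8b differed by 0.24, with an interval from -0.70 to 1.18, and Cox7a1, another muscle isoform, by -0.01, with an interval from -0.53 to 0.50.

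In complex I, Ndufs8, an iron-sulfur subunit of the electron path, was the only subunit called. It read 7.78, 7.21, 7.90 and 7.70 in bur, against 6.61, 6.93, 7.04 and 7.02 in control bone, and the groups did not overlap. The difference was 0.75 ± 0.17 (adjusted p = 0.0104).

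The assembly factors, which help build complex I and leave it when it is complete, held the other 3 of the 6 calls. Ndufaf6 read 10.88, 11.22, 10.52 and 10.44 on bur arrays, against 11.86, 12.46, 11.94 and 11.94 on control arrays. Every bur value lay below every control value, and it fell by 1.29 ± 0.23 on the log2 scale (adjusted p = 0.00308). Ndufaf1 read 6.04, 5.55, 5.13 and 6.01 in bur and 4.90, 4.94, 5.04 and 4.85 in control bone. It rose by 0.75 ± 0.19 (adjusted p = 0.019), with no overlap. Ndufaf7, a mitochondrial methyltransferase, rose by 0.80 ± 0.22 (adjusted p = 0.0268), while its other probe, at 0.55 ± 0.19, did not pass (adjusted p = 0.0581). The Ndufaf7 call was lost without bur 1 (0.61), control 1 (0.69) or control 4 (0.76), and the Ndufaf1 call without bur 4 (0.64, adjusted p = 0.0574).

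Apart from Ndufs8, the core subunits looked at here did not pass the test. Ndufs1 differed by -0.26 (95% interval -0.54 to 0.02), Ndufv1 by -0.02 (-0.43 to 0.40), Sdha by -0.37 (-0.65 to -0.09, adjusted p = 0.0619) and Uqcrc1 by -0.04 (-0.30 to 0.22). Atp5a1 differed by -0.03 (-0.41 to 0.35) and Atp5b, the catalytic beta subunit, by -0.51 (-0.98 to -0.03, adjusted p = 0.12).

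The low count in bur bone depended on the background correction. With normexp on the raw spot means, 12 members were called higher and 16 lower, 13% and 17.4%, where 15.8% of all probes were called higher and 10.8% lower. With the authors' log2 values the counts were 12 and 10, 13% and 10.9%, where 17.2% of all probes were called higher and 11.6% lower. Ndufs1 fell by 0.51 (adjusted p = 0.00323) and Ndufa11 by 0.50 (adjusted p = 0.00884) under normexp, against a fall of 0.26 and 0.27 in the values above. The 5 calls of higher signal were made against control groups that include the 2 samples with high neural markers. Without control 1 and control 4, none of the 5 passed: Ndufs8 was at 0.66, Cox4i2 at 0.98, Cox6b1 at 0.53, Ndufaf1 at 0.69 and Ndufaf7 at 0.56, while Ndufaf6 was at -1.44 and stayed called (adjusted p = 0.0158). Leaving out these 2 arrays also lowered the share of all probes called higher from 12.6% to 6.01%. The part of the neural signal and of the smaller control group in the lost calls was not tested.

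**Figure D1:**
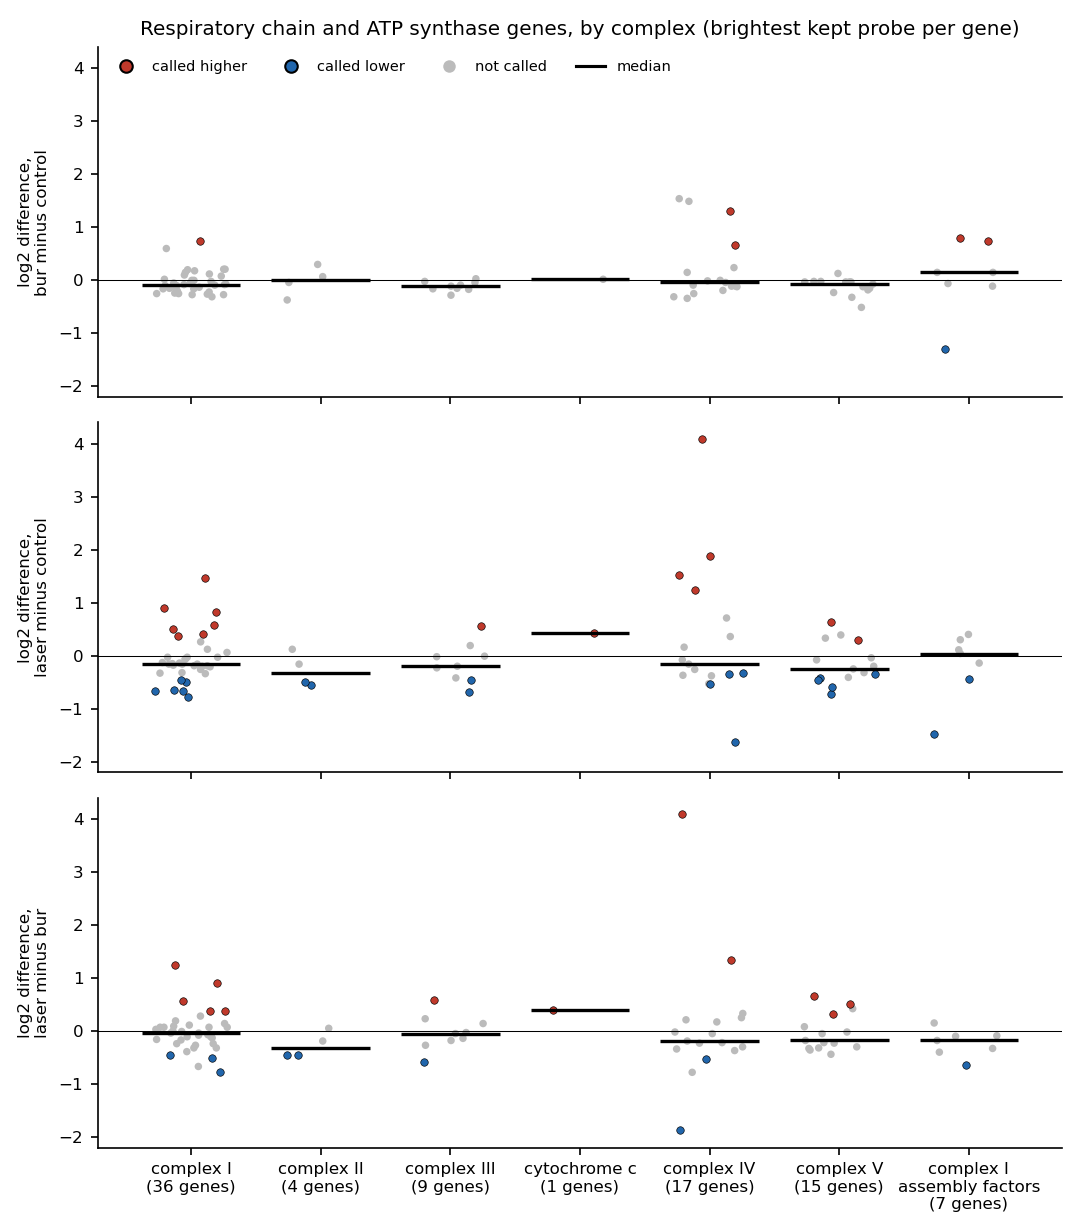
Each point is 1 gene, placed by complex, and the vertical axis is its log2 difference for bur minus control, laser minus control and laser minus bur, from top to bottom. Red points were called higher and blue points lower, the bar is the median, and the 3 further names are not drawn. Medians lie near 0, and calls are few in the top panel and on both sides of 0 in the other panels.

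Laser ablation was followed by calls in both directions. Of 92 genes, 16 were called higher and 22 lower in laser-ablated than in control bone, 41.3% in all, against 33.4% of all genes, 17.8% higher and 15.6% lower. The share called higher was near that of all genes. The member median was -0.16, against 0.01 over all genes, and the groups did not overlap for 47 of 92 members, against 35.2% of all genes. Counted by probe, 26 of 126 were called higher and 25 lower, against 32.8% of all probes called, 18.9% higher and 13.9% lower. Among all probes at 8.5 log2 or more, where most members lie, 14.1% were called higher and 27.3% lower, with a median of -0.16. Calls ran both ways in complexes I, III, IV and V: 7 genes rose and 6 fell in complex I, 1 rose and 2 fell in complex III, 4 rose and 4 fell in complex IV, and 2 rose and 5 fell in complex V. In complex II, 2 of 4 fell and none rose.

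In complex I, Ndufs6, an accessory subunit of the matrix arm, read 11.05, 10.89, 10.90 and 10.94 on laser arrays, against 11.44, 11.93, 11.72 and 11.83 on control arrays. All laser values were lower, and the fall was 0.78 ± 0.14 (adjusted p = 0.00126). Ndufa11 and Ndufa12 both fell by 0.66 (adjusted p = 0.00575 and 0.00251). Ndufs8 rose by 0.82 ± 0.17 (adjusted p = 0.00369) and Ndufa10, an accessory subunit, by 1.46 ± 0.20 (adjusted p = 0.000331), and its other probe did not pass the filter. Ndufs1 (-0.34, adjusted p = 0.0653) and Ndufv1 (0.12, adjusted p = 0.658) did not pass.

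In complex II, Sdha, the flavoprotein that oxidises succinate, read 10.37, 10.41, 10.65 and 10.36 in laser, against 11.04, 10.98, 10.91 and 11.10 in control bone. It fell by 0.56 ± 0.13 (adjusted p = 0.00666), with no overlap. The membrane anchor Sdhd read 11.40, 11.56, 11.51 and 11.42, against 11.92, 11.89, 12.09 and 11.97 in control bone, and fell by 0.50 ± 0.11 (adjusted p = 0.00462). Sdhb, the iron-sulfur subunit, differed by 0.12 with an interval from -0.15 to 0.39. Its probe has a purine share of 70%, and with the composition trend described below subtracted its value was -0.55 (adjusted p = 0.00551). The call of Sdhd did not hold under that correction, at -0.29 (adjusted p = 0.0505), and that of Sdha did not hold without control 1 and control 4, at -0.49 (adjusted p = 0.0505).

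In complex III, Uqcrq, a small subunit, rose by 0.56 ± 0.12 (adjusted p = 0.0054) and its other probe by 0.53 ± 0.18 (adjusted p = 0.0433). Uqcrc2, a core protein, read 10.12, 10.09, 10.05 and 10.01 in laser, against 10.58, 10.55, 10.52 and 10.46 in control bone, and fell by 0.46 ± 0.11 (adjusted p = 0.00642). Uqcrc1 differed by 0.19 (-0.07 to 0.45) and Cyc1, the heme subunit, by -0.23 (-0.51 to 0.06). Uqcrfs1 encodes the Rieske iron-sulfur protein. Its brighter probe read 10.68, 10.54, 10.45 and 10.66 in laser, against 11.48, 11.14, 11.13 and 11.35 in control bone, and fell by 0.69 ± 0.14 (adjusted p = 0.00353). The dimmer probe read 8.01, 8.14, 7.89 and 8.09, against 6.66, 7.12, 7.51 and 7.28, and was higher by 0.89 ± 0.17 (adjusted p = 0.0023). Neither pair of groups overlapped, so the direction for this gene depends on the probe.

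In complex IV, Cox4i2 read 8.81, 8.81, 8.97 and 8.71 in laser, against 7.13, 8.09, 7.17 and 6.82 in control bone. It rose by 1.52 ± 0.32 (adjusted p = 0.00368) with no overlap. Cox4i1 read 13.63, 13.59, 14.10 and 14.08, against 14.28, 14.20, 14.52 and 14.54 in control bone, and fell by 0.53 ± 0.17 (adjusted p = 0.0295). That call was lost without laser 1 (-0.46), laser 2 (-0.45), control 3 (-0.49) or control 4 (-0.48), and with the composition trend subtracted (-0.33). The 2 isoforms of subunit 4 thus had opposite signs in laser bone and, without a call for Cox4i1, in bur bone.

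Cox6b2, the testis isoform of Cox6b1, read 9.91, 9.49, 10.07 and 9.65 on laser arrays, against 8.65, 8.65, 8.41 and 8.51 on control arrays. It rose by 1.23 ± 0.19 (adjusted p = 0.000523), while Cox6b1 differed by 0.36 (adjusted p = 0.0863). Cox6a2 read 8.66, 8.63, 7.22 and 6.61 in laser, against 5.69, 7.14, 5.13 and 5.68 in control bone. The groups overlapped through control 2, and it rose by 1.87 ± 0.52 (adjusted p = 0.0175). The call was lost without laser 1 (adjusted p = 0.0557) or laser 2 (adjusted p = 0.0554), and its overlapping second probe was at 1.36 without a call (adjusted p = 0.0713). The muscle markers summed to 629 to 842 in laser, against 423 to 1200 in control bone.

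Cox8b had low signal, at 2.78, 3.90, 2.97 and 2.00 in laser, against 3.74, 5.37, 4.20 and 4.85 in control bone, where 3 of 4 arrays were well above background. It fell by 1.62 ± 0.43 (adjusted p = 0.0136). Under normexp that fall was 0.38 (adjusted p = 0.0342). Cox6c fell by 0.34 ± 0.11 (adjusted p = 0.032) and its other probe was at 0.10. That call was lost without any 1 of the 4 laser arrays or of control 1, 3 and 4 (-0.35 to -0.32). It was also lost with the composition trend subtracted (-0.23, adjusted p = 0.127). The authors' values hold only the other Cox6c probe, at -0.16 without a call (adjusted p = 0.231), so they do not test this call.

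**Figure D2:**
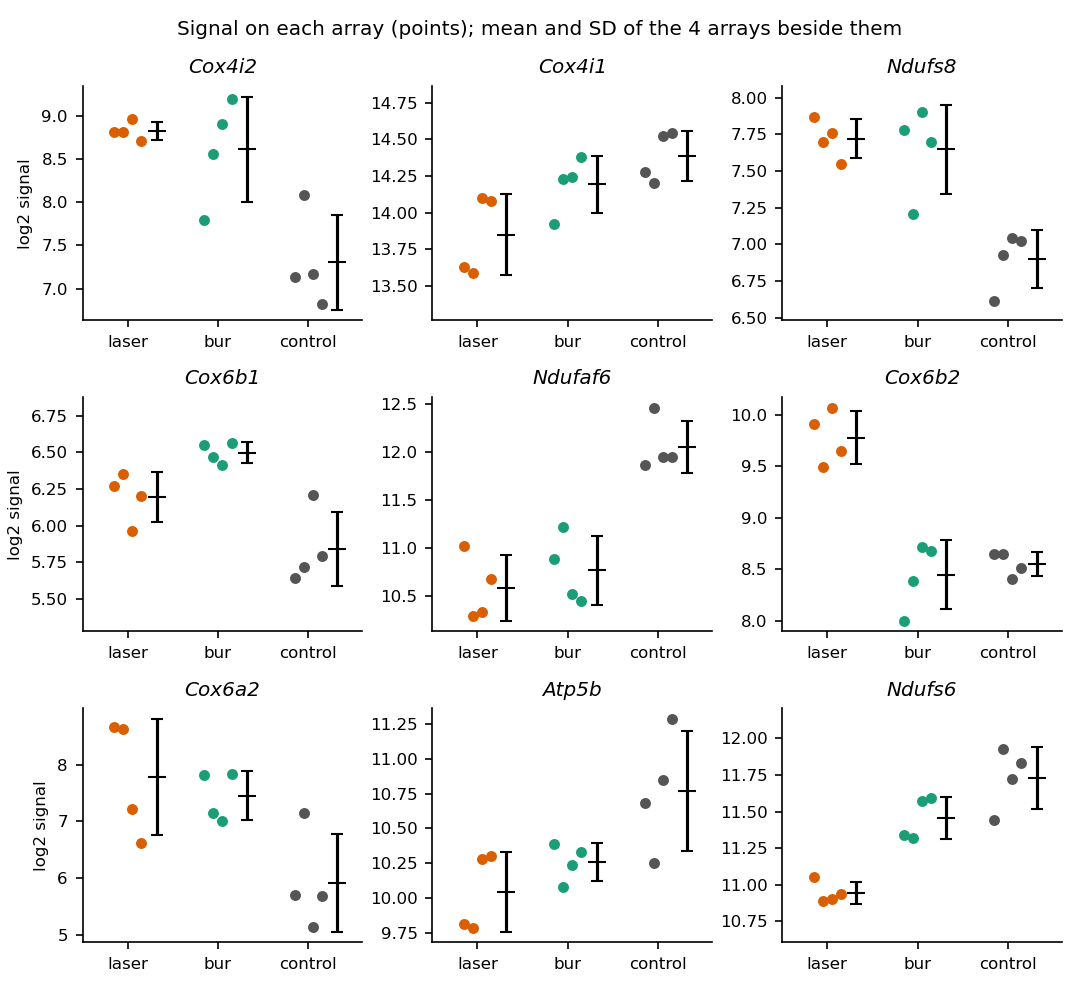
Points are the log2 signal of the 4 laser, 4 bur and 4 control arrays for 9 genes, with the mean and SD beside each group. The vertical scales differ between panels. Cox4i2 and Ndufs8 lie higher in both cut groups than in control bone, Cox6a2 was called higher in laser bone and not called in bur bone, whose range holds control 2, Ndufaf6 lies lower in both, and Cox6b2 lies higher in laser bone than in both others.

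The 2 probes of Cox7c, a small subunit of complex IV, gave different results. The probe with the higher mean over all 12 arrays, which stands for the gene, read 9.41, 9.35, 9.26 and 9.34 on laser arrays, against 5.80, 5.43, 5.0 and 4.80 on control arrays. The difference was 4.09 ± 0.20, a 17.0-fold higher signal (adjusted p = 1.57e-07). That probe is the brighter one through its laser arrays alone. It averaged 5.25 in bur and 5.26 in control bone, where the other probe averaged 6.40 and 6.26, so the laser difference itself set which probe stands for Cox7c. The other probe read 6.50, 6.16, 5.95 and 5.85 in laser, against 6.32, 6.50, 6.23 and 5.98 in control bone, with overlapping groups and a difference of -0.14 (-0.61 to 0.33). The Cox6c-ps1 probe behaved alike, at 9.47, 9.38, 9.34 and 9.37 in laser, against 5.74, 5.74, 5.32 and 4.98 in control bone, a difference of 3.95 ± 0.27 (adjusted p = 1.5e-06). That probe matches 51 of 58 aligned bases of a Cox6c probe, and Cox6c itself was at -0.34 and 0.10. A signal for such a close copy is uncertain in its source.
Cox6c-ps1: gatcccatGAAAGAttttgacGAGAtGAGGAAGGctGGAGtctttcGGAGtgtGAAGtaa
Cox6c, dimmer probe: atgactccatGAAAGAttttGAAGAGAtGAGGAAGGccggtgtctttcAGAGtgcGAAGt
These probes lie at chr19:54398139-54398198 and chr7:71474397-71474456 on the minus strands of rn4, and the longest stretch they share is 16 bases.

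In complex V, Atp5b read 9.81, 9.78, 10.28 and 10.30 in laser, against 10.68, 10.25, 10.85 and 11.29 in control bone. Control 2 lay below laser 3 and laser 4, and the fall was 0.73 ± 0.22 (adjusted p = 0.0241). The call was lost without laser 1, laser 2, control 3 or control 4, where the values were -0.65, -0.64, -0.70 and -0.55. Atp5i, a membrane subunit, fell by 0.59 ± 0.16 (adjusted p = 0.0158) and was at -0.33 without a call with the composition trend subtracted. Atp5e, the epsilon subunit, read 14.62, 14.40, 14.40 and 14.48, against 14.05, 13.86, 13.90 and 13.57, and rose by 0.63 ± 0.16 (adjusted p = 0.0114), with its other probe at 1.41 (adjusted p = 0.000159). Atp5a1, the alpha subunit, differed by -0.08 (-0.46 to 0.30).

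Cycs, the electron carrier between complexes III and IV, read 11.27, 11.27, 11.21 and 11.18 in laser, against 11.14, 10.66, 10.70 and 10.77 in control bone. It rose by 0.42 ± 0.13 (adjusted p = 0.0338), and 7 of the 8 single laser or control arrays, when left out, ended that call. Its other probe rose by 1.75 ± 0.15 (adjusted p = 1.03e-05). Among the assembly factors, Ndufaf6 read 11.02, 10.29, 10.33 and 10.67 in laser, against 11.86, 12.46, 11.94 and 11.94 in control bone. It fell by 1.47 ± 0.23 (adjusted p = 0.000601), with no overlap, and so lay lower in both cut groups, which share the control samples. Ndufaf5 fell by 0.44 (adjusted p = 0.0172). Ndufaf1 (0.11, adjusted p = 0.687) was not called, and Ndufaf7 differed between its probes, at 0.40 without a call and 1.12 with one (adjusted p = 0.00094).

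Laser-ablated bone was also compared directly with bur-drilled bone. There 13 of 92 members were called higher and 9 lower, 23.9%, against 25.6% of all genes, 11.6% higher and 14% lower, and the groups did not overlap for 38 members, against 33.6% of all genes. The median was -0.08, against -0.06 over all genes. Among all probes at 8.5 log2 or more it was -0.15, with 11.9% called higher and 22% lower. Of the 126 probes 22 were called higher and 10 lower, against 27.3% of all probes called, 13.4% higher and 13.9% lower. By complex, 5 genes rose and 3 fell in complex I, none rose and 2 fell in complex II, 1 rose and 1 fell in complex III, 2 rose and 2 fell in complex IV, and 3 rose and none fell in complex V.

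Ndufa2, an accessory subunit of complex I, read 9.72, 9.82, 9.77 and 9.64 in laser, against 10.62, 10.42, 10.57 and 10.47 in bur bone. It fell by 0.78 ± 0.12 (adjusted p = 0.000755). Sdhc and Sdhd, the membrane anchors of complex II, fell by 0.46 ± 0.14 (adjusted p = 0.0299) and 0.45 ± 0.11 (adjusted p = 0.00927). The Sdhc call was lost without any 1 of the 4 laser arrays or of bur 2, 3 and 4 (-0.49 to -0.40), and Sdhc was at -0.12 with the composition trend subtracted (adjusted p = 0.503). Cox6b2 read 9.91, 9.49, 10.07 and 9.65 in laser, against 8.00, 8.39, 8.72 and 8.68 in bur bone, and rose by 1.33 ± 0.19 (adjusted p = 0.000361). Cox6a1 fell by 0.52 ± 0.14 (adjusted p = 0.0166), and under normexp it was at -0.21 without a call, and the call was also lost without laser 2 or with the authors' values. Atp5h, a stalk subunit of ATP synthase, rose by 0.65 ± 0.14 (adjusted p = 0.00649) and its other probe by 0.44 (adjusted p = 0.0171).

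Several genes that differed from control in bur bone did not differ here beyond their spread. Cox4i2 was at 0.21 (95% interval -0.48 to 0.90), Ndufs8 at 0.07 (-0.30 to 0.44) and Ndufaf6 at -0.18 (-0.68 to 0.31). Ndufaf1 fell by 0.64 ± 0.19 in laser relative to bur bone (adjusted p = 0.0306), with a laser range of 4.87 to 5.25 and a bur range of 5.13 to 6.04. The call was lost without laser 1, 3 or 4 or bur 1 or 4 (-0.64 to -0.52), with 75th percentile scaling (-0.49) and with the authors' values (-0.38, adjusted p = 0.0531).

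Agreement between probes of 1 gene could be read for 29 members with 2 or more kept probes. In the laser against control comparison, 15 of them had at least 1 called probe. For 4 (Cycs, Atp5e, Uqcrq and Atp5l) all probes were called the same way. With the composition trend subtracted, both Atp5l probes were at -0.05 and -0.06 and the brighter Cycs probe was at 0.32, none of them called. For 9 some probes were called and others not, and for 2 of the 15 (Uqcrfs1 and Atp5g2) probes were called in opposite directions. All probes were called alike in 26.7% of these genes, against 16.9% of the 2516 such genes on the array. Of those 2516, 1939 had some probes called and others not, and 152 had probes called in opposite directions. All probes had the same sign in 55.2% of the 29 members, against 58.3% of all genes with 2 or more kept probes. The median spread between probes of a member was 0.34 log2 there, 0.17 in bur against control and 0.47 in laser against bur. Over all 4748 genes with 2 or more kept probes it was larger, at 0.53, 0.34 and 0.50 in these comparisons.

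Atp5g2, which encodes a c-ring subunit of ATP synthase, shows the disagreement with 4 probes. They were at -0.25, -0.46 (adjusted p = 0.017), -0.26 and 0.64 (adjusted p = 0.00157). The probe at 0.64 has a purine share of 66.7%, and the others 35 to 40%. Cox5b, which binds zinc in complex IV, read 12.98, 12.72, 12.99 and 12.97 in laser, against 13.12, 12.95, 13.02 and 13.19 in control bone, on its brighter probe. The dimmer probe, which overlaps it, read 11.95, 11.67, 12.02 and 12.09, against 11.22, 10.77, 11.06 and 10.94. The brighter one differed by -0.16 (adjusted p = 0.375) and the dimmer one by 0.94 (adjusted p = 0.00044), in groups that did not overlap. For Ndufb4, an accessory subunit of complex I, overlapping probes that share 26 bases were at -0.19 without a call and 0.56 with one (adjusted p = 0.00421).
The purine shares of these Ndufb4 probes are 46.7 and 63.3%. Other pairs did not follow their purine shares. The Uqcrfs1 probe at 0.89 has 45% and the one at -0.69 has 48.3%. The Atp5g3 probes both have 56.7% and lay 1.77 apart.

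In bur against control both Cox7c probes were within 0.14 of each other, both Cycs probes within 0.03 and both Cox5b probes within 0.06. Others lay further apart, with the probes of Uqcrfs1 at -0.11 and 0.41, neither called, those of Atp5g3 0.43 apart and those of Ndufa4l2 0.75 apart. In the authors' deposited table the Uqcrfs1 probes are called in opposite directions there, at -0.36 (adjusted p = 0.0317) and 0.54 (adjusted p = 0.0147). Among the 29 genes 1 member (Ndufaf7) had a call on 1 probe and none on the other. Over all genes with 2 or more kept probes, 1530 had a call, and 1053 of them had some probes called and others not.

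**Figure D3:**
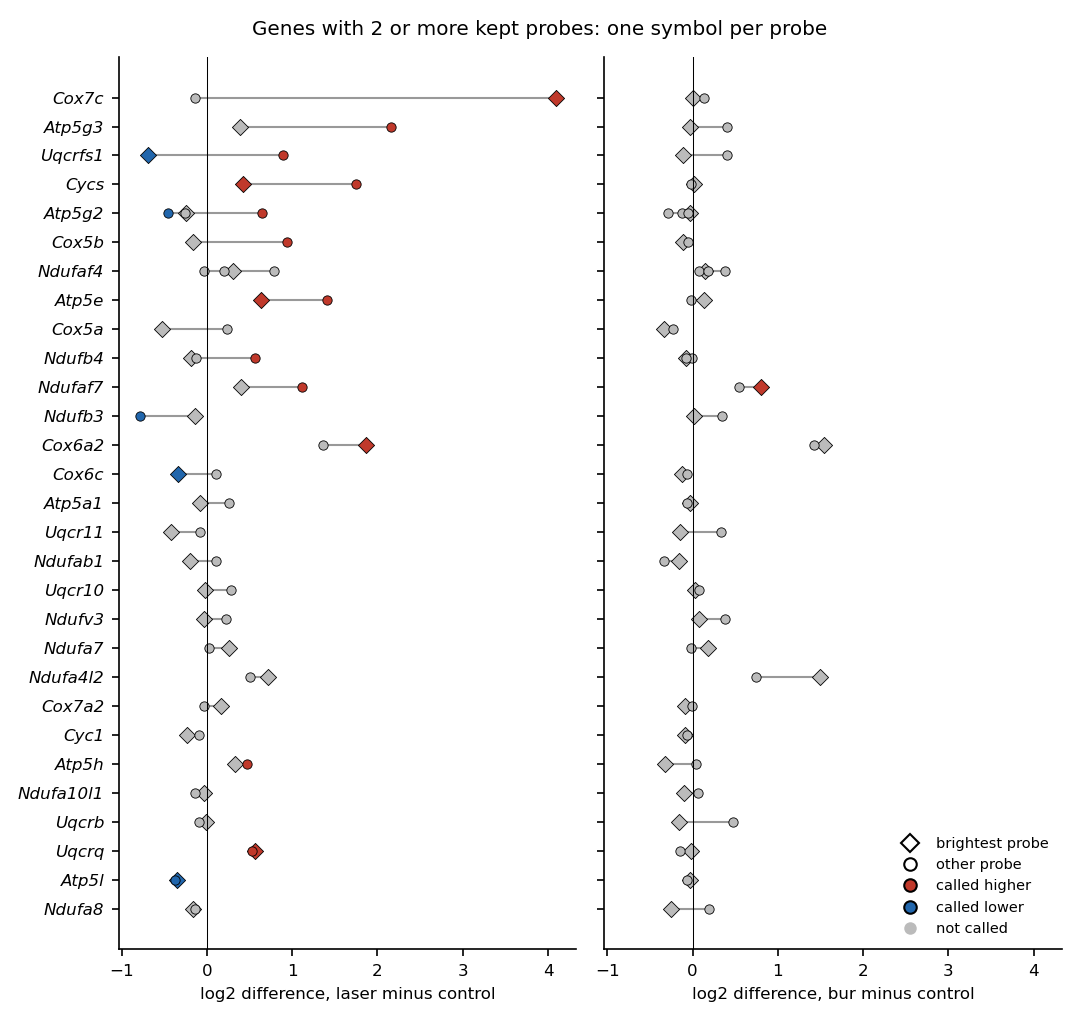
Each row is 1 of the 29 genes with 2 or more kept probes, ordered by the spread of its probes in laser minus control. Each symbol is the log2 difference of 1 probe, a diamond for the brightest, red where called higher and blue where called lower, for laser minus control on the left and bur minus control on the right. The probes of Cox7c span 4.23 on the left and 0.14 on the right.

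The purine share of a probe moved with the laser difference and not with the bur difference. Over all kept probes, 51.5% of those with over 70% purines were called higher in laser than in control bone, with a median of 0.82, against 31.9% (median 0.33) at 60 to 70% and 14.8% (median -0.04) at 40 to 50%. In bur against control the same classes had 9.09, 11.9 and 12.6% called higher, with medians of -0.07, 0.11 and 0.09. Among members with 60 to 70% purines, 10 of 21 probes were called higher and 1 lower in laser bone, and with 40 to 50% purines 2 of 46 were called higher and 12 lower. Across the 126 member probes, which share arrays and in part genes, Pearson's r between purine share and log2 difference was 0.30 for laser against control and 0.01 for bur against control. With the share of A alone r was 0.36 and -0.01, and with that of G and C together -0.22 and 0.04. Over all kept probes r for laser against control was 0.16 with purines, 0.19 with A and 0.01 with G and C. Of 38 pairs of probes of 1 gene that differ in purine share, the probe with more purines had the higher laser difference in 29. Genes such as Atp5g2, with 4 probes, gave several pairs that share a probe, so the pairs are not independent. Pairs were not counted for the bur difference or over all genes.

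When the trend with base composition was subtracted on each array, a choice made after seeing the data, 18 members were called higher and 20 lower in laser against control, 19.6% and 21.7%, where 18.7% of all probes were called higher and 12.5% lower. The brighter Cox7c probe was then at 3.13, Cox6c-ps1 at 3.99 and the dimmer Cycs probe at 1.13, all still called. The overlapping Ndufb4 probe was at -0.18 without a call. The Uqcrfs1 probes, at -0.43 (adjusted p = 0.0434) and 1.06 (adjusted p = 0.000963), were still called in opposite directions. The part of labelling, slide and RNA quality in this trend was not tested.

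**Figure D4:**
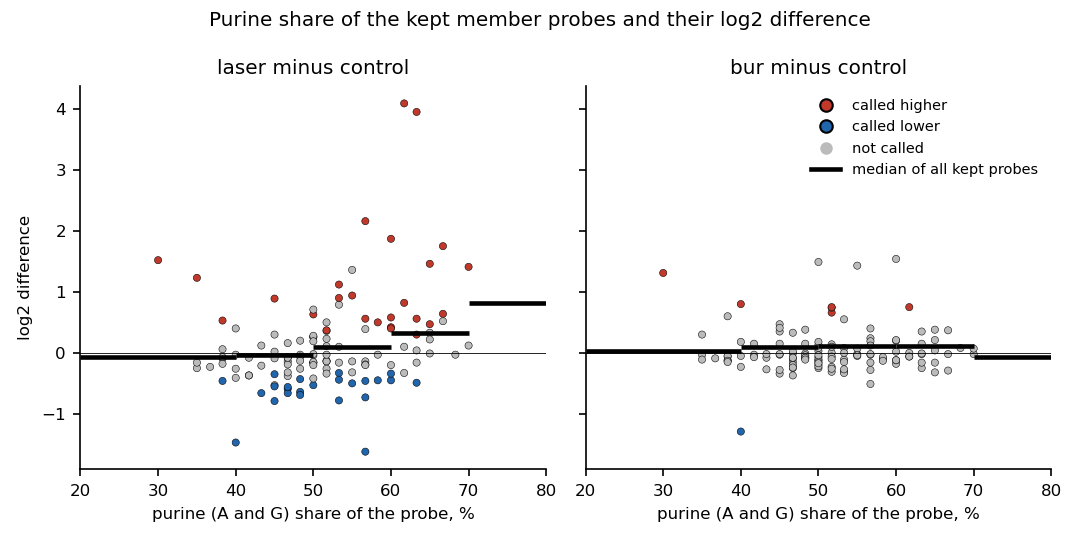
Each point is 1 of the 126 kept member probes, with its purine share in percent on the horizontal axis and its log2 difference on the vertical axis, for laser minus control on the left and bur minus control on the right. Bars are medians of all kept probes by purine class. They climb to 0.82 on the left and stay between -0.07 and 0.12 on the right.

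Pathways around the respiratory chain were read from lists chosen with earlier results of these data known. For the counts below, 12.8% of all genes were called higher and 9.12% lower in bur against control. The shares were 17.8% and 15.6% in laser against control, and 11.6% and 14% in laser against bur. Genes of hypoxia and glycolysis had the most calls in bur bone among the 7 lists: 18 of 24 rose and none fell against control, with a median of 0.98. Pdk1, the kinase that restrains pyruvate entry into mitochondria, read 8.81, 8.34, 7.93 and 7.79 in bur, against 6.54, 6.61, 6.85 and 6.47 in control bone. It rose by 1.6 ± 0.20 (adjusted p = 0.000671). Hk2, which starts glycolysis, rose by 1.66 ± 0.26 (adjusted p = 0.00179). In laser against control 1 of 24 rose (Pdk1, by 0.80, adjusted p = 0.0118) and 2 fell, with a median of -0.23, and in laser against bur 18 fell and none rose, with a median of -1.12. The oxidative phosphorylation members had no such shift in bur bone, at a median of -0.06. Macrophage markers moved with the same groups, with 9 of 11 higher in bur than in control bone and 7 of 11 lower in laser than in bur bone, and their part in these lists was not tested.

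The mitochondrial genome encodes 13 further subunits, all kept. None was called in bur against control, where 21.9% of all genes were called. In laser against control, where 33.4% were called, ND3 and COX2 rose and ND6, the subunit on the opposite strand, fell. ND3 read 14.91, 15.02, 15.09 and 14.82 in laser, against 14.02, 13.68, 12.95 and 13.06 in control bone, a rise of 1.53 ± 0.23 (adjusted p = 0.000494). COX2 rose by 1.18 ± 0.27 (adjusted p = 0.00621) and ND6 fell by 1.21 ± 0.33 (adjusted p = 0.0157). The probes of ND3 and COX2 have purine shares of 61.7 and 60%, the highest of the 13.

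Of 33 assembly factors outside the naming rule, 3 rose and none fell in bur against control, and 9 rose and 4 fell in laser against control. Beside this and the next lists, 12.8% of all genes were called higher and 9.12% lower in bur bone. In laser bone the shares were 17.8% and 15.6%. Uqcc1, which assists complex III assembly, rose in both, by 0.67 (adjusted p = 0.00904) in bur and 0.64 (adjusted p = 0.00666) in laser bone. Coa3, an assembly factor of complex IV, rose by 1.30 ± 0.13 (adjusted p = 3.03e-05) in laser bone. Among 16 genes of the citric acid cycle and pyruvate dehydrogenase, 1 rose and 2 fell in bur bone, and 3 rose and 5 fell in laser bone. Cs, citrate synthase, fell by 0.62 (adjusted p = 0.0125) in bur and by 0.87 (adjusted p = 0.00103) in laser bone. Of 13 regulators of mitochondrial biogenesis, Esrra rose in bur bone (0.51, adjusted p = 0.0326) and Pprc1 in laser bone (0.52, adjusted p = 0.0143), and no other was called against control. Among 9 nucleotide, phosphate and proton carriers none was called in bur bone, while in laser bone Ucp2 fell by 1.13 (adjusted p = 0.011) and Slc25a3 rose by 0.51 (adjusted p = 0.021). Of 8 other electron donors to ubiquinone, Etfdh rose in bur bone (0.59, adjusted p = 0.0317) and Prodh fell in laser bone (-1.11, adjusted p = 0.0409).

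**Figure D5:**
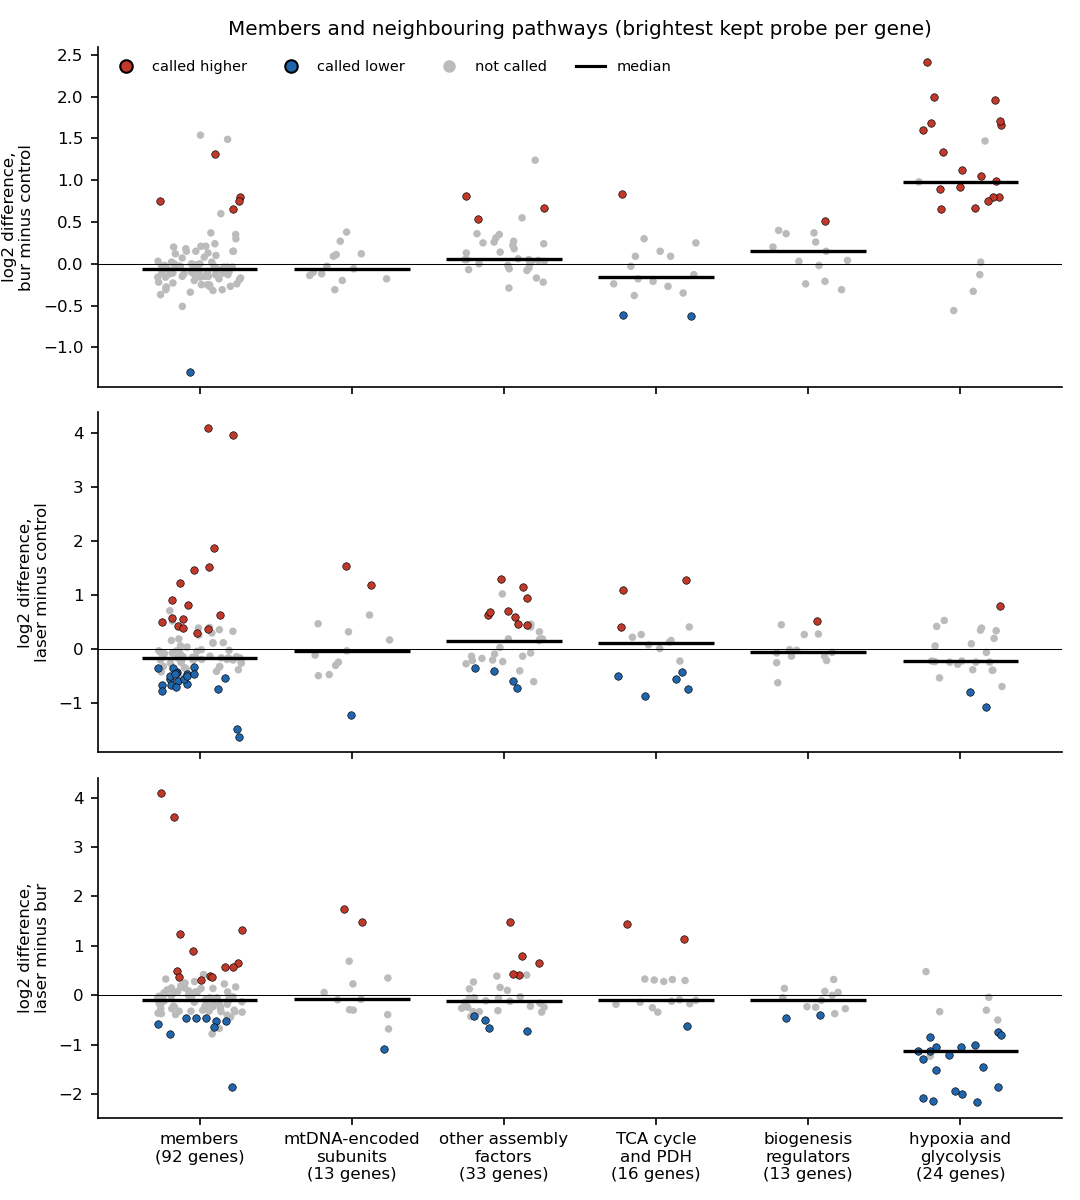
Each point is 1 gene of the members or of 5 neighbouring lists, and the vertical axis is its log2 difference for bur minus control, laser minus control and laser minus bur, from top to bottom. Red points were called higher and blue points lower, and bars are medians. The hypoxia and glycolysis list sits at 0.98 in the top panel and at -1.12 in the bottom panel, and the members sit near 0 in all 3.

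What the members share at their start sites was read from RefSeq promoters of GRCr8, from 250 bases before to 50 after each start. Promoters were found for 81 of the 94 genes. The run GCGCA, any base and GCGC, bound by the respiratory factor Nrf1, was in 19.8% of them on either strand, against 4.25% of 33469 promoters. CCGGAAG, the core of ETS factors such as Gabpa, was in 24.7%, against 8.75%, and AAGATGGC, of Yy1, in 18.5%, against 3.17%. ACGTG, the core read by hypoxia-inducible factors, was in 29.6%, against 19.3%. These are matches of letters and not sites. The promoter of Cox4i1 at chr19:65630133-65630432 on the plus strand of GRCr8 is shown because it holds the ETS letters in 2 places beside its start and the hypoxia letters in 1, all in capitals.
Cox4i1 promoter: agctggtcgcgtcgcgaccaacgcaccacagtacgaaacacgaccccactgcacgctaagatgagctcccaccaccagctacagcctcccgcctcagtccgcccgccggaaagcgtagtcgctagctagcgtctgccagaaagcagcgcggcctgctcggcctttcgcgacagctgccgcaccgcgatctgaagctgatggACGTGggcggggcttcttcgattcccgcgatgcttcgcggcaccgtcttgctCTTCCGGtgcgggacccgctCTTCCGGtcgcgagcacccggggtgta

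The authors' deposited table of comparisons holds 100 of the member probes, of 92 genes. By the authors' deposited table, 15 of them have a higher and 11 a lower signal in bur than in control bone at an adjusted p under 0.05. For laser against control the authors' deposited table gives 25 higher and 27 lower, and for laser against bur 13 higher and 13 lower.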

How the data were processed

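Each deposited array file gives spot intensity values from the program Agilent Feature Extraction, version 11.0.1.1 (submitters' processing notes). For each sample 200 ng of total RNA was labelled with Cy3, per the labels' protocols. A deposited table of the authors gives log2 expression, and their deposited comparisons hold log2 fold changes and adjusted p-values, whose tool is not given in the sources used here. Control and outlier spots were removed, replicate spots averaged per probe, and log2 processed signals brought to common quantiles over the 12 arrays. No spot was saturated. Probes well above background on at least 4 of 12 arrays were kept. All 12 arrays entered 1 limma fit (limma 3.58.1, R 4.3.3), with Benjamini-Hochberg adjustment over 27196 probes and calls under 0.05. The fit was tested on simulated data. Intervals are at 95%. The number of arrays limits the precision. No arrays were duplicates, since the highest correlation within a group was 0.989.

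The members and lists were chosen with earlier results of these data known. Named genes are the 3 highest and 3 lowest called members per complex and comparison, a fixed set of core subunits and isoforms, members whose probes differ in call, and list genes with the smallest p. The rule missed 8 probes whose RefSeq symbol is of this kind but whose array name is another, such as Usmg5. Sequences of probes come from the scanner files and the promoter from the RefSeq table for GRCr8. Alternatives tried were normexp with an offset of 50, scaling to the 75th percentile, other probe filters and gene summaries, fits of 2 groups, array weights, a replicate block, left-out arrays, the authors' values and subtraction of the base composition trend. Of the 24920 entries with the authors' log2 values, the 21080 that also stand in their comparisons were used. For some members, Cox6c and Cox5b among them, these hold only the dimmer of the probes kept here. Some items are not reported here.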

Additional observations from a re-analysis of the deposited data

Results flagged for a closer look

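In 150 groups of 4 arrays of the named genes, 2 held an array far from the other 3 by Dixon's criterion, where chance gives about 1 in 20. Ndufaf6 read 12.46 in control 2, against 11.86 to 11.94 on the other control arrays, so that array lies on the side that widens its difference from both cut groups. Without single arrays its bur against control difference stayed between -1.44 and -1.15 and called. The brighter Cox5b probe read 12.72 in laser 2, against 12.97 to 12.99 on the other laser arrays, and that probe was not called in any comparison.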

How the results depend on the processing

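Of 150 single-gene results, the alternatives left the call and any called direction unchanged for 128 (the authors' values) to 150 (no filter on dim probes). Under the stricter filter 138 of 144 were unchanged. A sign that turned with no call in either version was not counted as a change. Cox8b in bur against control, for example, went from 0.24 to -0.13 with 75th percentile scaling. Counts in bur against control moved most. Members called higher there, 5 in the report, were 12 with normexp, 2 with 75th percentile scaling, 2 with only both groups in the fit, 1 without control 1 and control 4, and 12 with the authors' values. Over all probes, 15.8, 8.57, 7.39, 6.01 and 17.2% were called higher under these settings in turn, against 12.6% in the report. Members called lower, 1 in the report, were 16 with normexp, 3 with probes above background on all 12 arrays, 2 with adjustment over genes, 10 with the authors' values and 2 with the composition trend subtracted. Of everything tested, 10.8, 10.9, 9.74, 11.6 and 7.91% were called lower under these settings in turn, against 7.84% in the report. The member median was 0.00 with normexp and -0.01 with percentile scaling. Percentile scaling moved the median of all probes to -0.09 from 0.10. It moved the calls over all probes to 8.57% higher and 12.3% lower, against 12.6% and 7.84%. In laser against control, members called lower were 12 without control 1 and control 4, or 13%, where 12.9% of all probes were called lower. The member median was -0.09 there, -0.09 with the authors' values and -0.09 with the composition trend subtracted. In laser against bur, 18 were lower with normexp and 21 with array weights, or 19.6% and 22.8%, where 15.5% and 20% of all probes were called lower.

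Leaving out single arrays gave 4 to 7 higher and 1 to 2 lower in bur against control, with medians of -0.10 to -0.04. In laser against control it gave 10 to 16 higher and 16 to 24 lower, with medians of -0.18 to -0.12, the lowest count of higher genes without laser 1. In laser against bur it gave 8 to 13 higher and 6 to 10 lower, with medians of -0.12 to -0.05, the 8 without bur 3, laser 1 or laser 2 and the 6 without bur 4 or laser 2. Over all probes, these fits called 8.94 to 15.4% higher and 5.32 to 7.41% lower in bur against control. They called 14.6 to 19.3% and 10.2 to 14.8% in laser against control, and 10.3 to 14% and 9.26 to 15.5% in laser against bur.

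Among results called in at least 1 version, signs turned for Sdhd in bur against control under normexp (0.22). They also turned for Uqcrfs1 in laser against control as a mean of probes (0.10). Signs turned for Cox5b as a mean of probes (0.39 against control, 0.47 against bur). Cox5b was at 0.42 and 0.38 with the authors' values, which hold only its dimmer probe. That probe was at 0.94 and 0.99 in the report, so this turn is a change of probe. The sign of Sdhb turned with the composition trend subtracted (-0.55 against control, -0.57 against bur). Means of probes mix those that disagree. The causes of the turns of Sdhd and Sdhb were not tested. With the replicate block, members called were 6 higher and 1 lower in bur against control, 16 and 23 in laser against control and 13 and 9 in laser against bur. Of all probes it called 12.8% higher and 8.38% lower, 19.3% and 15%, and 13.5% and 14.8% in these comparisons. Same-numbered bur and control samples correlated at 0.08 to 0.18 in their deviations, and laser and control ones at -0.07 to 0.24. Laser and bur ones correlated at -0.05 to 0.29, and the numbers were not taken as pairs. The replicate number of each array is also its column on the slide. Slide could not be fitted as a block, since slide 2 held laser arrays alone. Dim probes such as Cox8b and Ndufa4l2 depend on the background correction.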
